A study of Mus musculus with 6 samples.

Results

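NF-kB feedback genes, adhesion molecules and cytokines of the IL6 family were examined in fibroblasts sorted from mouse ventral skin. The 10 genes were set as a list: Nfkbia, Nfkbiz, Tnfaip3, Relb and Birc3 for NF-kB signalling, Icam1 and Vcam1 for adhesion, and Il6, Il11 and Lif as cytokines. Each had 1 probe set of its own on the array, so all 10 were measured, among 22180 named genes. Cells of the K14-PTHrP (KrP) transgenic line, in which the keratin 14 promoter, known for its activity in basal keratinocytes, drives Pthrp, were compared with cells of wild-type (WT) littermates. There were 3 KrP samples of nipple-like ventral skin and 3 WT samples of ventral skin in telogen, all from female mice aged 8 to 12 weeks on a C57BL/6 background. The source and genotype labels give K14 for all 3 KrP samples, while the free-text descriptions of KrP 2 and KrP 3 name K15 and K16 instead, and the genotype label was followed. Every sample went through the same digestion with trypsin and collagenase, pooling of cells, and sort for viable CD140-positive cells without CD31, CD45, CD117 and CD49f. The labels name 3 mice as the source of cells, without saying whether for a sample or a genotype, so a p-value here reflects only the scatter among these samples, possibly a technical one.

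NF-kB is a family of dimeric transcription factors held in the cytoplasm by IkB proteins until a signal such as TNF or interleukin 1 leads to IkB breakdown. The factor then switches on its own inhibitors, among them IkB alpha and A20, together with adhesion molecules and cytokines, so the level of these transcripts is widely used as a readout of the pathway. IL6, IL11 and LIF signal through a shared receptor chain, gp130, to JAK kinases and STAT3, and dermal fibroblasts are a known source of all of them during inflammation and wound repair.

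All values are log2 expression values made by the authors, so 1 unit is a 2-fold step, and log2 fold changes are the KrP mean minus the WT mean. Array medians lay between 6.34 and 6.43. All 10 genes had means above 6.28, the 95th percentile of 1105 olfactory receptor genes that served as a guide to background. CD140 genes were high in both groups, with Pdgfra between 13.42 and 13.54 in KrP samples and between 13.13 and 13.32 in WT samples. Of 56 marker genes of 7 other cell types, 26 had means above that background level. Of the 56, 1 rose (Csf1r) and 3 fell (Tek, Cldn5 and Cspg4), where 1.15% of all genes rose and 1.03% fell. The mean of Tek over the 6 samples, 6.14, lay below that level, and the call of Csf1r also ended with quantile normalisation (0.0604). Without KrP 3 none of these 4 passed (limma adjusted p between 0.0610 and 0.196). Of the sort's excluded markers, Ptprc (CD45) and Kit (CD117) had means below that level, while Pecam1 (CD31) and Itga6 (CD49f) lay above it. Over all probe sets KrP 2 correlated by 0.986 with KrP 1, by 0.992 with KrP 3 and by 0.989 with each WT array, while KrP 1 and KrP 3 correlated with WT arrays by at most 0.988. Pthlh, the gene of PTHrP, was not analysed here, so the genotype labels have no direct check in these values.

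The mean of each of the 10 genes was lower in KrP than in WT samples, with a median log2 fold change of -0.58 beside 0.01 over all genes. The 10 genes were chosen with earlier results of these data known, and most of them varied together across samples. Their counts beside the shares of all genes are therefore a description. No gene passed limma at a Benjamini-Hochberg adjusted p under 0.05 without a block, where 2.18% of all genes passed (1.03% as lower and 1.15% as higher in KrP). At an unadjusted p under 0.05, 5 of the 10 were lower in KrP samples (Nfkbia, Tnfaip3, Birc3, Icam1 and Il11), against 6.56% of all genes. Samples in the 2 groups share the numbers 1 to 3. Deviations across genes correlated by 0.414, 0.35 and 0.12 between samples numbered 1, 2 and 3, and by -0.385 to 0.067 between unlike numbers. The number was therefore also fitted as a replicate block. The evidence is weak for number 3 and no label states a pairing, so blocked p-values may be too small. With the block, 6 of the 10 fell (Tnfaip3, Birc3, Icam1, Vcam1, Il6 and Il11) and none rose, where 3.02% of all genes fell, 5.33% rose and 8.35% passed in either direction. The 6 calls with the block became 5 without both samples numbered 2, and 0 without those numbered 1 or 3, fits in which 903, 0 and 0 of all genes passed. Without the block but leaving out KrP 2 alone, 5 of the 10 passed as lower in KrP, where 1116 of all genes passed, 434 of them as lower. The limma adjusted p of these 5 ran from 0.00259 for Il11 to 0.0370 for Vcam1 (the others were Tnfaip3, Birc3 and Icam1). Without any other single sample 0 of the 10 passed, fits in which between 85 (without KrP 3) and 321 (without KrP 1) of all genes passed. In bulk samples such as these, fewer cells that express a gene and less RNA of it per cell cannot be told apart.

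**Figure D1:**
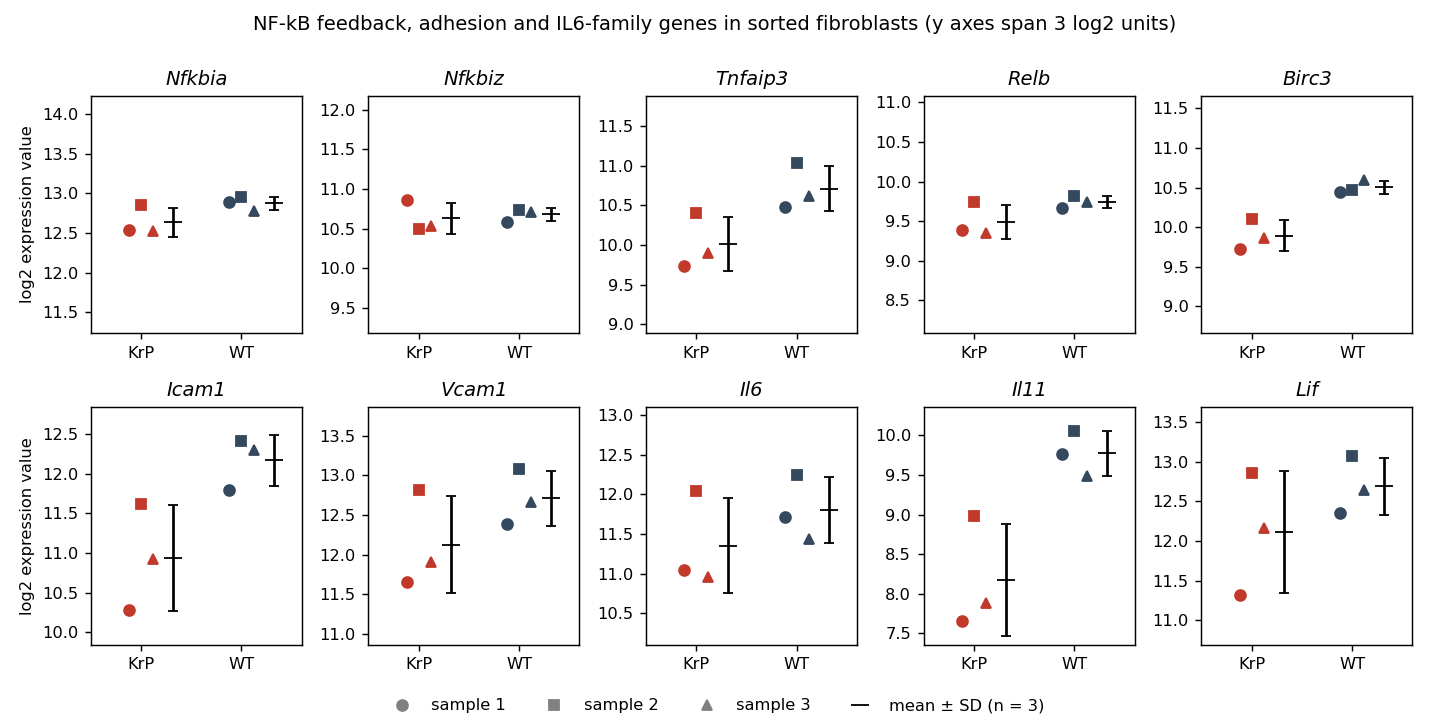
Log2 expression values of the 10 genes in each sample, with KrP samples in red at the left and WT samples in dark blue at the right of each panel. Symbols mark the sample number, the bar marks the mean ± SD (n = 3), and every y axis spans 3 log2 units; the KrP and WT samples do not overlap for Tnfaip3, Birc3, Icam1 and Il11.

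Among the inhibitors, Nfkbia encodes IkB alpha, the protein that binds NF-kB dimers and takes them out of the nucleus. It had log2 values of 12.54, 12.85 and 12.52 in KrP samples 1, 2 and 3, against 12.89, 12.95 and 12.78 in WT samples 1, 2 and 3. KrP 2 lay within the WT range and the other KrP samples below it. The log2 fold change was -0.24 ± 0.10 SE (limma adjusted p = 0.306, or 0.0950 with the replicate block).

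Tnfaip3 encodes A20, a ubiquitin-editing enzyme that shuts off signalling from TNF and Toll-like receptors. It had 9.74, 10.40 and 9.90 in KrP samples, against 10.48, 11.03 and 10.62 in WT samples. Each KrP sample was below each WT sample, and the gap within same-numbered samples was nearly even, at -0.74, -0.63 and -0.72. It was 1.62-fold lower in KrP samples (log2 fold change -0.70 ± 0.20 SE, limma adjusted p = 0.145, or 0.00706 with the block).

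Nfkbiz encodes IkB zeta, a nuclear member of the IkB family that serves as a coactivator for a subset of targets, Il6 among them. It had 10.86, 10.50 and 10.53 in KrP samples, against 10.59, 10.74 and 10.71 in WT samples. KrP 1 was the highest and KrP 2 the lowest of the 6 samples, so the groups overlapped in full. Its log2 fold change was -0.05, with a 95% interval from -0.34 to 0.24 (limma adjusted p = 0.897, or 0.866 with the block), and it changed sign, to 0.01, without KrP 2.

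Relb, the NF-kB subunit of the slower non-canonical branch and itself an NF-kB target, had 9.39, 9.74 and 9.35 in KrP samples, against 9.66, 9.82 and 9.74 in WT samples. KrP 2 lay inside the WT range and the others below it. The log2 fold change was -0.25, with a 95% interval from -0.56 to 0.07 (limma adjusted p = 0.437, or 0.219 with the block). Birc3 encodes cIAP2, a ubiquitin ligase that relays TNF receptor signals and protects cells from death. It had 9.72, 10.10 and 9.86 in KrP samples, against 10.44, 10.47 and 10.60 in WT samples, with no overlap and a tight WT group. It was 1.53-fold lower in KrP samples (log2 fold change -0.61 ± 0.13 SE, limma adjusted p = 0.0576, or 0.0211 with the block).

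Both adhesion genes encode immunoglobulin-type surface proteins that bind integrins of leukocytes. Icam1, the ligand of the leukocyte integrin LFA-1, had 10.28, 11.62 and 10.92 in KrP samples, against 11.80, 12.41 and 12.30 in WT samples. All KrP samples were below all WT samples, though KrP 2 came close to WT 1. It was 2.35-fold lower in KrP samples (log2 fold change -1.23 ± 0.31 SE, limma adjusted p = 0.0986, or 0.00564 with the block). Vcam1, the ligand of integrin alpha 4 beta 1, had 11.65, 12.82 and 11.91 in KrP samples, against 12.39, 13.08 and 12.66 in WT samples. KrP 2 lay above WT 1 and WT 3, and each KrP sample was below the WT sample of the same number, by 0.26 to 0.75. The log2 fold change was -0.58, with a 95% interval from -1.26 to 0.09 (limma adjusted p = 0.385, or 0.0241 with the block).

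Endothelial cells, which the sort removes through CD31, also carry both adhesion proteins. Of 9 endothelial markers 2 fell (Tek and Cldn5) and none rose, where 1.03% of all genes fell. Both calls ended without KrP 3 (limma adjusted p = 0.0610 and 0.0967) or WT 3 (0.125 and 0.0629), and that of Tek whichever sample was left out. With the block 3 fell, where 3.02% of all genes fell. The third was Kdr, a VEGF receptor chosen after its values were seen. Kdr had 7.76, 6.84 and 7.31 in KrP samples, against 9.28, 8.19 and 8.67 in WT samples, with no overlap (2.66-fold lower, limma adjusted p = 0.0658, or 0.00158 with the block). Kdr was lowest in the samples numbered 2 of each group, where Icam1 and Vcam1 were highest. Of the 9 markers, 6 had a lower mean in KrP samples, where 48.6% of all genes did. Their median log2 fold change was -0.05, beside 0.01 over all genes. At a limma unadjusted p under 0.05, 1 was higher and 3 were lower in KrP, where 16.0% of all genes passed in either direction. The mean log2 level of all 9 markers was 6.70, 6.50 and 6.50 in KrP samples 1, 2 and 3. It was 6.86, 6.96 and 6.65 in WT samples 1, 2 and 3, highest in WT 2. The log2 of their summed level was 10.19, 9.96 and 9.91 in KrP samples, against 10.57, 10.34 and 10.20 in WT samples, lowest in the samples numbered 3. Pecam1 itself lay between 6.58 and 6.74 in KrP samples and between 6.49 and 7.13 in WT samples. The part of such cells in the adhesion values was not tested.

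Il11, a cytokine linked to fibroblast activation and matrix production, showed the largest difference of the 10. It had 7.66, 8.98 and 7.89 in KrP samples, against 9.77, 10.06 and 9.49 in WT samples. Each KrP sample was below each WT sample, and the smallest gap was that of the samples numbered 2. It was 3.02-fold lower in KrP samples (log2 fold change -1.60 ± 0.33 SE, limma adjusted p = 0.0524, or 0.00612 with the block).

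Il6, the founding member of the family and an inducer of the acute-phase response, had 11.05, 12.04 and 10.96 in KrP samples, against 11.72, 12.25 and 11.44 in WT samples. The groups overlapped, with KrP 2 above WT 1 and WT 3, and each KrP sample was below its same-numbered WT sample. The log2 fold change was -0.45, with a 95% interval from -1.15 to 0.25 (limma adjusted p = 0.529, or 0.0437 with the block). Lif, named for its effect on leukaemia cells and known for keeping mouse stem cells undifferentiated, had 11.32, 12.86 and 12.16 in KrP samples, against 12.35, 13.07 and 12.65 in WT samples. Its groups overlapped, and the gap was -1.03 for the samples numbered 1 and -0.21 for those numbered 2. The log2 fold change was -0.58, with a 95% interval from -1.39 to 0.23 (limma adjusted p = 0.482, or 0.0603 with the block).

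**Figure D2:**
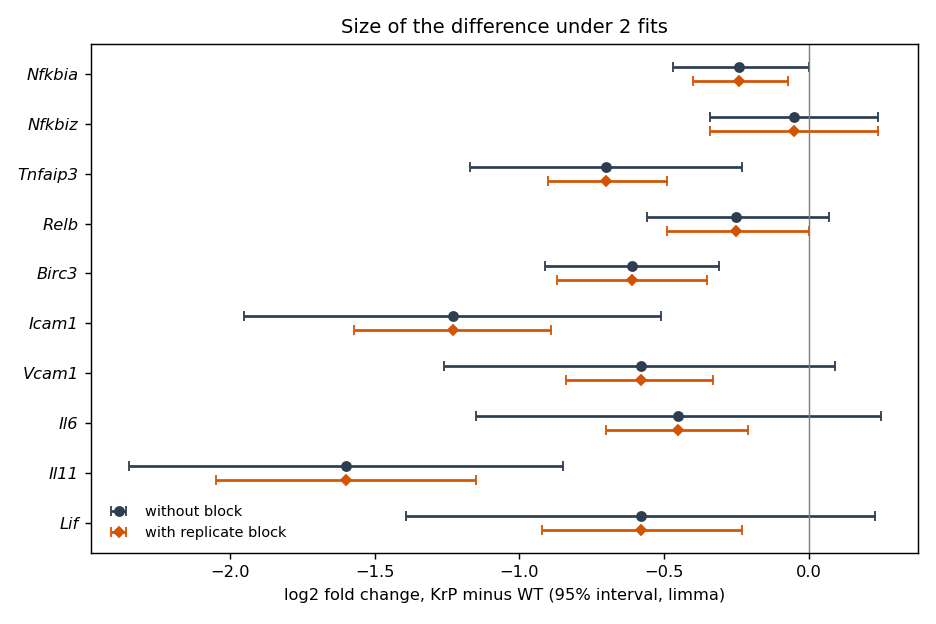
Log2 fold change of each gene (KrP minus WT) with its 95% interval from limma, without a block (dark circles) and with the replicate number as a block (orange diamonds). The point estimates are the same in both fits and all lie below 0; without the block the intervals of Nfkbiz, Relb, Vcam1, Il6 and Lif include 0.

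Most of the 10 genes also varied together within each group. KrP 2 had the highest value of its group for 9 of the 10 genes, all but Nfkbiz, and WT 2 the highest of its group for 9 of the 10, all but Birc3. Of all 22180 genes, KrP 2 was the highest of its group for 9238 and WT 2 for 9634, the most of any sample in each group. The mean deviation from the group mean over the 10 genes was 0.45 in KrP 2, against -0.32 in KrP 1 and -0.14 in KrP 3, and 0.22 in WT 2, against -0.16 in WT 1 and -0.07 in WT 3. Over all genes these deviations lay between -0.01 and 0.01. Arrays with near-equal medians hold that mean near 0, so it cannot set the 10 genes apart. KrP was lower in all 3 same-numbered pairs for 9 of the 10 genes, all but Nfkbiz, against 19.0% of all genes. The 3 KrP samples were all below the 3 WT samples for 4 of the 10, against 8.93% of all genes.

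**Figure D3:**
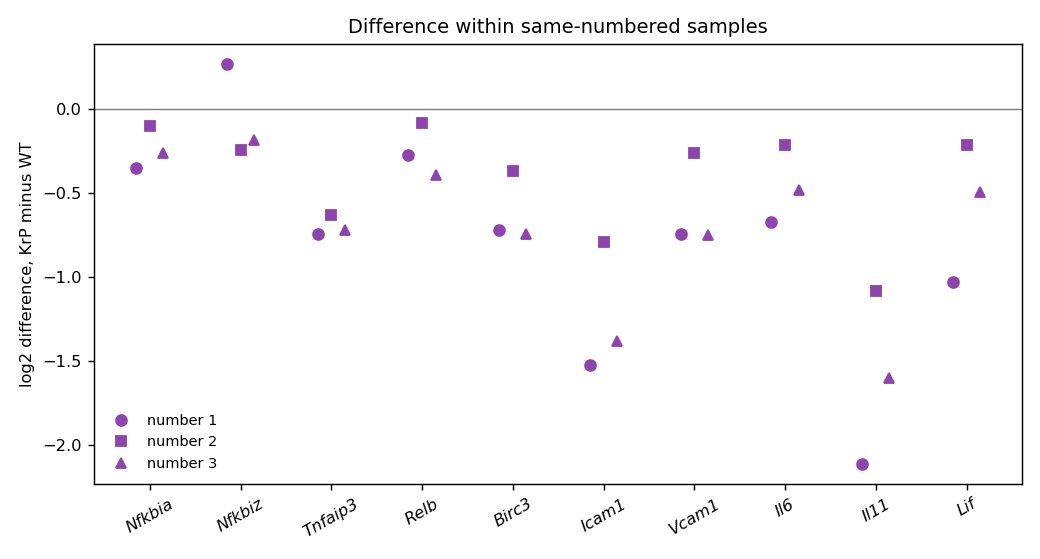
Log2 difference between the KrP and the WT sample of the same number for each gene, with a symbol for each number. The samples numbered 2 gave the smallest difference for 9 of the 10 genes, all but Nfkbiz, and of the 10 genes only Nfkbiz had a difference above 0, at 0.27 for the samples numbered 1.

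Markers of other cells were set beside this pattern. The log2 of the summed level of 10 keratinocyte markers lay between 9.63 and 10.00 in KrP samples, against 9.79, 10.45 and 9.69 in WT samples 1, 2 and 3, and was highest in WT 2. That of 13 leukocyte markers lay between 10.93 and 11.66 in KrP samples and between 10.93 and 11.21 in WT samples. Within the KrP group, 6 of these 13 markers were highest in KrP 2 and 6 in KrP 3, and within the WT group 11 were highest in WT 2, although their summed level was lowest there. Of the keratinocyte markers, 3 of 10 were highest in KrP 2 within its group and 9 of 10 in WT 2 within its own. Means lay above the background level for only 5 of the 13 leukocyte and 5 of the 10 keratinocyte markers. WT 2 was also the highest WT sample for 9634 of all 22180 genes. These ranks are therefore no measure of cell content. Immediate early genes are known to be induced by cell dissociation. Fos, a subunit of AP-1, had 10.96, 10.13 and 10.28 in KrP samples, against 9.56, 8.47 and 9.29 in WT samples, lowest in the samples numbered 2 in both groups. It did not pass without the block (limma adjusted p = 0.0746, or 0.00406 with the block), nor did Fosb and Jund (0.100 and 0.0591, or 0.00158 and 0.00172 with the block). These 3 were chosen after their values were seen. Within the KrP group, 5 of 26 immediate early genes were highest and 12 lowest in KrP 2. Within the WT group, 11 of them were highest and 11 lowest in WT 2. Of 26 immediate early genes, 0 rose and 1 fell, the nuclear receptor Nr4a2, with a log2 fold change of -0.68, a call that held without KrP 2 and ended when any other sample was left out (limma adjusted p between 0.0508, without WT 2, and 0.198, without KrP 3). With the block 6 rose and 2 fell, where 5.33% of all genes rose and 3.02% fell. Of the 26 means, 11 were lower in KrP samples, and the list median log2 fold change was 0.14. The KrP samples were all above the WT samples for 7 of the 26, against 11.4% of all genes. They were all below for 3, against 8.93% of all genes: Nr4a2, Ier5 and Myc. Ier5 and Myc, chosen after their values were seen, had log2 fold changes of -0.60 and -0.54. The part of keratinocyte carry-over, leukocytes and dissociation in the values of the 10 genes was not tested.

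Across the 6 samples, the 9 genes other than Nfkbiz correlated with each other by Pearson's r between 0.61 and 0.96 in 36 pairs, and Nfkbiz with the others by -0.44 to -0.04. These are descriptions over 6 points that share the genotype and the sample number. Among 13410 genes above the background level, the 2 most like each gene reached r between 0.952 and 0.999. They were Igfbp2 and Zswim6 for Birc3, Slc15a3 and Qk for Tnfaip3, Kdm6b and Tmf1 for Icam1, Tex14 and Ppp4r2 for Vcam1, and Enpp4 and Cystm1 for Il11. For the others they were Stk32c and Aldh1a2 (Nfkbia), Trim37 and Wsb2 (Relb), Rtp3 and Pdp1 (Nfkbiz), Ermap and Msra (Il6), and Atad1 and Slc25a32 (Lif). Likeness over 6 points is given as a description, with no test.

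Promoter sequences are shown for 4 of these genes, to set their regulatory letters beside values that moved together across samples. RefSeq windows (build GRCm38.p6), from 250 bases before to 50 bases after a start site, were at hand for 7 of the 10 genes. Both strands were searched for the kB consensus, the decameric NF-kB motif, and for the AP-1 motif TGANTCA, which reads the same on both strands. The kB consensus was found in windows of 3 of the 7 genes (Nfkbia, Tnfaip3 and Il6), against 5.14% of all 27025 genes with a window (4.51% of 32851 windows). The AP-1 motif was found for 4 of the 7 (Tnfaip3, Il6, Il11 and Lif), against 8.97% of genes (7.81% of windows). Capitals mark the kB match in the first 3 sequences and the AP-1 match in that of Il11, all written 5′ to 3′ on the gene's strand. The windows lie at chr12:55492598-55492897 (minus strand) for Nfkbia, chr10:19015361-19015660 (minus strand) for the upstream of 2 starts of Tnfaip3, chr5:30012864-30013163 (plus strand) for Il6, and chr7:4778092-4778391 (minus strand) for the downstream of 2 starts of Il11.
Nfkbia: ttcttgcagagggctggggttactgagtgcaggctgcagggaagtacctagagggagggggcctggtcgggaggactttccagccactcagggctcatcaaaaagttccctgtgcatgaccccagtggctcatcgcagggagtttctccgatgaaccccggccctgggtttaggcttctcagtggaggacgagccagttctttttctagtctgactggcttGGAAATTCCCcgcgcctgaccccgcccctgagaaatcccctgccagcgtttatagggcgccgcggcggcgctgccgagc
Tnfaip3: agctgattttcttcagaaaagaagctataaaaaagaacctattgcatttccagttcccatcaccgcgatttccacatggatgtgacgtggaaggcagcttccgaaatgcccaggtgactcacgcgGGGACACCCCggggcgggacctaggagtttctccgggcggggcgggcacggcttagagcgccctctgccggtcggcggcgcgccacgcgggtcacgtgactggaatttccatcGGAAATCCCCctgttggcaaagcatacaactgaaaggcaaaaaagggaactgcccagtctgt
Il6: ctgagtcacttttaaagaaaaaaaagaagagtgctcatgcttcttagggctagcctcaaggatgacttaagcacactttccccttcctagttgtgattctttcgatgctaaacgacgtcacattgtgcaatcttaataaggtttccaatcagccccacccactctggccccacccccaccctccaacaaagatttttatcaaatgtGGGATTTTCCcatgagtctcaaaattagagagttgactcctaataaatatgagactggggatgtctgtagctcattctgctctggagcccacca
Il11: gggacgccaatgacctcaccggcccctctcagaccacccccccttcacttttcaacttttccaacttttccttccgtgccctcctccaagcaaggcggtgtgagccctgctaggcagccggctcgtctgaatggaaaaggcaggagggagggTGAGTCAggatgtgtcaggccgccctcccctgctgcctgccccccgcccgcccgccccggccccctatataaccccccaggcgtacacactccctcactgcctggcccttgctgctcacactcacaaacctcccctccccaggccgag

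The kB match of Nfkbia, whose values differed least of the 3, lies 29 to 20 bases before the start. Tnfaip3 holds 2 kB matches, 125 to 116 and 12 to 3 bases before the start, and an AP-1 match that does not overlap them. The kB match of Il6 lies 44 to 35 bases before the start. Il11, with the largest difference of the 10, holds the AP-1 match 98 to 92 bases before this start and no kB match in either of its windows, and Icam1 and Birc3 hold neither motif in theirs. A match is a description of letters, and a window without one says only that these letters are not in it.

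The wider pathway was described with 10 lists of 159 genes, of which 146 were measured. Of these, 8 rose and 3 fell, which is 7.53% called beside 2.18% of all genes and 3.31% of genes above the background level. Of the 146, 129 lay above that level. With the replicate block 14 rose and 23 fell, where 5.33% of all genes rose and 3.02% fell (8.53% and 4.57% of genes above the background level). The lists were chosen with earlier results of these data known, so these shares are a description. The median log2 fold change of the 146 was -0.06, beside 0.01 over all genes. The 10 genes are part of these lists, and without them 136 were measured, 8 rose and 3 fell.

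None of the 4 measured NF-kB subunits passed, and the means of all 4 were lower in KrP samples. Rel, the c-Rel subunit, was chosen after its values were seen, with 10.09, 10.37 and 10.00 in KrP samples, against 10.61, 10.99 and 10.75 in WT samples (limma adjusted p = 0.0746, or 0.0112 with the block). Among 16 IkB proteins and other feedback genes there were 1 riser and 1 faller, or 1 and 3 with the block. Tnip1, which encodes the A20-binding partner ABIN1, fell 3.15-fold in KrP samples, with 8.73, 9.97 and 9.05 there, against 10.89, 11.07 and 10.76 in WT samples (log2 fold change -1.66 ± 0.29 SE, limma adjusted p = 0.0298). Its groups were far apart, and KrP 2 was again the highest KrP sample. Bcl3, a nuclear IkB protein that works with the p50 and p52 subunits, rose 1.83-fold, with 10.02, 9.66 and 9.94 in KrP samples, against 9.08, 8.87 and 9.05 in WT samples (limma adjusted p = 0.0206). It moved opposite to Tnip1, and KrP 2 was the lowest KrP sample. Both calls ended without KrP 3 (limma adjusted p = 0.162 for Tnip1 and 0.142 for Bcl3), and without WT 1 (0.0870 and 0.0585), WT 2 (0.0987 and 0.0675) or WT 3 (0.118 and 0.104).

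The IKK complex and its adaptors, 22 measured genes, held 0 risers and 2 fallers, or 0 and 4 with the block. Traf1, an adaptor that binds cIAP2 and is an NF-kB target, fell 2.35-fold in KrP samples, with 6.61, 7.27 and 6.58 there, against 8.05, 8.20 and 7.90 in WT samples (limma adjusted p = 0.0231). Traf5, an adaptor of CD40 and the lymphotoxin beta receptor, fell 1.67-fold, with 7.73, 7.90 and 7.94 in KrP samples, against 8.67, 8.56 and 8.55 in WT samples (limma adjusted p = 0.0235). Neither overlapped between groups, where 8.93% of all genes had all KrP samples below all WT samples. Both were named because they were called, so their separation is a description. When 1 sample was left out, each passed only without KrP 2. The limma adjusted p of Traf1 and Traf5 was 0.0561 and 0.0560 without KrP 1, 0.131 and 0.125 without KrP 3, 0.0747 and 0.0784 without WT 1, 0.0753 and 0.0591 without WT 2, and 0.0861 and 0.118 without WT 3.

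Among 17 receptors and 12 ligands upstream of NF-kB, 0 passed without the block (unadjusted p under 0.05 for 4 receptors higher and 2 lower, and for 1 ligand higher and 1 lower). Of all 22180 genes, 16.0% had a limma unadjusted p under 0.05, with 2094 higher and 1455 lower in KrP samples. Among genes above the background level the share was 22.3%. Of the receptors 13, and of the ligands 4, lay above that level. With the block, 2 of the receptors were higher and 2 lower, and 1 of the ligands was higher and 1 lower. Over all genes 5.33% were higher and 3.02% lower with the block. The 6 genes that follow were chosen after their values were seen. Cd40, a TNF receptor family member, had 7.08, 8.83 and 7.96 in KrP samples, against 9.59, 10.65 and 9.97 in WT samples (limma adjusted p = 0.0514, or 0.00158 with the block). Tnfrsf1b, the second TNF receptor, had 10.02, 11.03 and 10.43 in KrP samples, against 11.32, 12.03 and 11.75 in WT samples (0.0670, or 0.00176 with the block). Both were highest in the samples numbered 2 within each group, as most of the 10 genes were. The higher receptors were Il1rap, a chain of the interleukin 1 receptor, with a log2 fold change of 0.80 (0.122, or 0.00755 with the block), and Tlr3, a sensor of double-stranded RNA, with 0.53 (0.367, or 0.0372 with the block). Both were lowest in the samples numbered 2 of each group. Tnf itself had 7.40, 8.25 and 7.38 in KrP samples, against 9.03, 10.45 and 8.67 in WT samples (0.107, or 0.00397 with the block). Il33, an alarmin of stromal cells, had 10.41, 12.20 and 11.47 in KrP samples, against 8.22, 10.23 and 9.05 in WT samples (0.0994, or 0.000661 with the block). Il33 was thus higher in KrP samples and still highest in the samples numbered 2.

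Of 21 other textbook NF-kB targets, 1 rose and 0 fell, and with the block 2 rose and 6 fell. The riser was Saa3, an acute-phase protein, with 13.59, 13.17 and 13.36 in KrP samples, against 11.56, 11.45 and 11.10 in WT samples (limma adjusted p = 0.00126), and the call held whichever sample was left out. The list had a median log2 fold change of -0.26, and 18 of its 21 means were lower in KrP samples, where 48.6% of all genes had a lower mean. Of 20 adhesion molecules and leukocyte integrins, 2 rose and 0 fell, and with the block 2 rose and 4 fell. Itga4, the alpha 4 chain of the integrin that binds VCAM1, rose 2.45-fold, with 8.02, 8.57 and 8.15 in KrP samples, against 6.91, 7.01 and 6.95 in WT samples (limma adjusted p = 0.00751). Cdh11, the cadherin of mesenchymal cells, rose 1.51-fold, with 13.01, 12.72 and 12.70 in KrP samples, against 12.36, 12.16 and 12.14 in WT samples (limma adjusted p = 0.0346). The call of Itga4 ended without KrP 3 (limma adjusted p = 0.0519) and without WT 3 (0.0542), and that of Cdh11 without KrP 3 (0.120), WT 1 (0.0558), WT 2 (0.110) or WT 3 (0.164), and also with no trend in the prior (0.0657). Itga4 differed in the opposite direction to its ligand Vcam1.

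**Figure D4:**
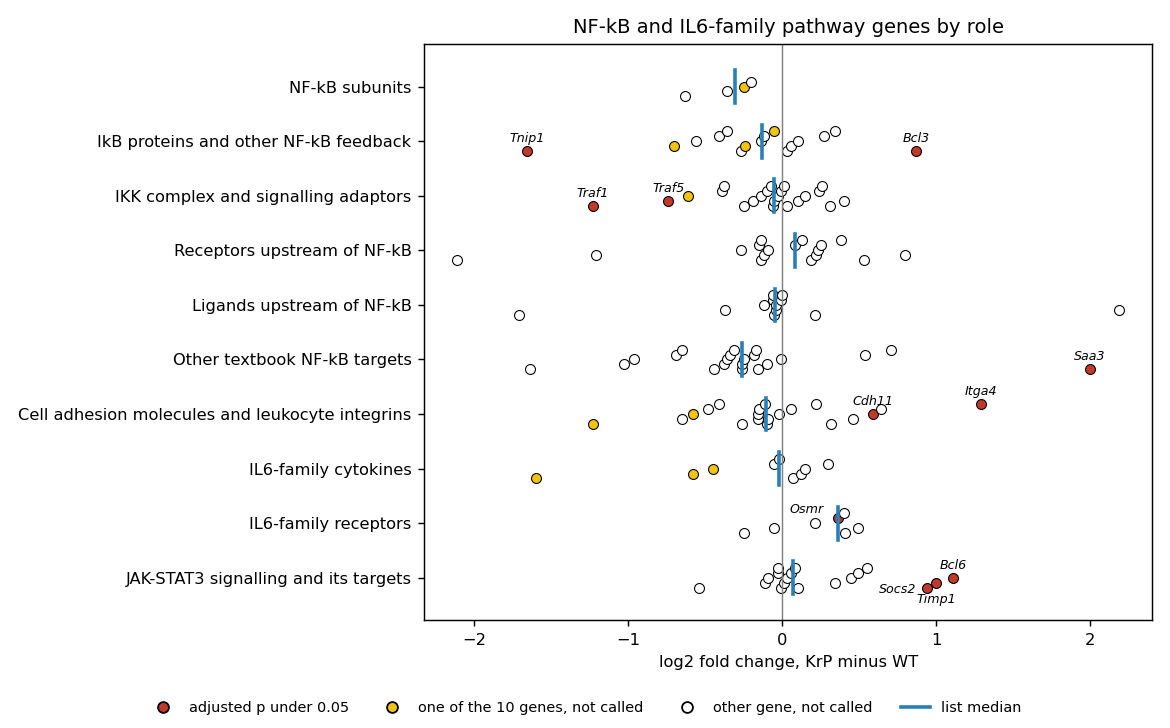
Log2 fold changes (KrP minus WT) of the measured genes in 10 pathway lists, a point for each gene, with called genes in red and named, the 10 genes in yellow and list medians as blue bars. A gene in several lists is drawn in each; the called genes lie at both ends of the axis, from Tnip1 at -1.66 to Saa3 at 2.00.

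Of 9 measured cytokines of the IL6 family none passed, and with the block Il6 and Il11 fell. The means of Osm, Ctf2 and Ebi3 lay below the background level, and those of Ctf1, Clcf1 and Il27 above it, with log2 fold changes of -0.02, 0.30 and -0.05 (these 6 were chosen after their values were seen). Their 7 measured receptors held 1 riser and no faller, or 2 risers with the block. Osmr, the oncostatin M receptor chain that pairs with gp130, had 12.76, 12.70 and 12.71 in KrP samples, against 12.34, 12.40 and 12.36 in WT samples. It rose 1.28-fold (limma adjusted p = 0.0347), a call that held without KrP 2 (0.0352) and ended without KrP 1 (0.0714), KrP 3 (0.186), WT 1 (0.103), WT 2 (0.0820) or WT 3 (0.164). The call of Osmr also ended with no trend in limma's prior (adjusted p = 0.113). Il6st, the gene of gp130, had a log2 fold change of -0.05 ± 0.09 SE (limma adjusted p = 0.849, chosen after its value was seen).

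Of 18 measured genes of JAK-STAT3 signalling and its targets, 3 rose and 0 fell, and with the block 4 rose. Socs2, a feedback inhibitor of cytokine and growth hormone receptors, had 12.59, 12.35 and 12.51 in KrP samples, against 11.60, 11.49 and 11.53 in WT samples (1.92-fold higher, limma adjusted p = 0.00299). Bcl6, a transcriptional repressor, had 10.97, 10.62 and 10.70 in KrP samples, against 9.83, 9.49 and 9.63 in WT samples (2.16-fold higher, limma adjusted p = 0.00847). Timp1, the metalloproteinase inhibitor that IL6-type cytokines are known to induce, rose 2.00-fold (limma adjusted p = 0.00707). The 3 KrP samples were all above the 3 WT samples for 5 of the 18 genes, these 3 among them, against 11.4% of all genes. Socs2, Bcl6 and Timp1 were named because they were called, so their separation is a description. The call of Socs2 held whichever sample was left out, that of Bcl6 ended without KrP 3 (0.0617) or WT 3 (0.0593), and that of Timp1 without KrP 3 (0.0592). Socs3, the classical STAT3 feedback inhibitor, had a log2 fold change of 0.34 ± 0.13 SE and did not pass (limma adjusted p = 0.248, or 0.121 with the block, chosen after its value was seen).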

How the data were processed

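The authors deposited log2 expression values, 1 for each probe set on each array. Per the submitters' processing notes the tools were RMA and Partek (no versions or roles stated), and a genome build is not given in the sources used here. Of 34390 probe sets, 23521 had 1 gene symbol in the platform annotation, 1814 had several and 9055 had none there. Symbols were updated by gene ID from a RefSeq table (GRCm38.p6), which held 23328 of the single-gene probe sets. A gene with several probe sets, 1082 genes, took its probe set of highest mean across the 6 arrays, leaving 22180 genes. Arrays carry no read depth, so their number limits the precision.

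KrP was compared with WT with limma 3.58.1 in R 4.3.3 (lmFit, eBayes with a trend), without filter or block, with Benjamini-Hochberg adjustment over all genes, and the code was tested on simulated data. Deviations from group means correlated across genes by 0.414, 0.350 and 0.120 between samples numbered 1, 2 and 3, all above 0.1. The numbers were therefore read as a possible pairing. No label states it, and blocked p-values may thus be too small. Alternatives were the block, no trend, a robust prior, array weights, filters on low genes, quantile normalisation, median centring, mean over probe sets and each sample left out.

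The members and lists were chosen with earlier results of these data known. Named by rule were the 10 genes in every sample, up to 3 called genes per pathway list and direction, the sort's marker genes and called markers, and the 2 genes most like each of the 10 over the 6 samples. Further genes outside this rule were named after their values were seen, as stated where they appear. Plots used Python 3.11.15 with matplotlib 3.10.9.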

Additional observations from a re-analysis of the deposited data

How the results depend on the processing

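None of the 10 genes changed direction under any alternative run, except Nfkbiz, with log2 fold changes of 0.01 without KrP 2, 0.04 with the replicate block and without both samples numbered 2, and 0.01 with the block and without both numbered 3 (from -0.17 to 0.01 when 1 sample was left out). The count of called genes among the 10 was 0 without a block, 6 with the replicate block, 7 with array weights, 2 with the lower 25% or 50% of genes dropped, and 1 with quantile normalisation, all lower in KrP. It ranged from 0 to 5 when a sample or a numbered pair was left out, and the 5 came without KrP 2 or without both samples numbered 2. Of all 22180 genes, 483 were called without a block, 1851 with the replicate block, 6410 with array weights and 449 with quantile normalisation. With the lower 25% or 50% of genes dropped, 530 and 548 of the genes kept were called. Between 85 (without KrP 3) and 1116 (without KrP 2) were called when 1 sample was left out. With the block and without both samples numbered 1, 2 or 3, 0, 903 and 0 were called. Of the pathway genes, 11 were called without a block, 37 with the replicate block and 68 with array weights, between 2 (without KrP 3) and 24 (without KrP 2) when 1 sample was left out, and 0, 21 and 0 with the block and without both samples numbered 1, 2 or 3. The fits with the block and without a numbered pair were chosen after seeing the data. With quantile normalisation, 207 of 449 called genes were higher in KrP samples, against 255 of 483 without it. Nfkbia and Relb passed only with array weights (limma adjusted p = 0.0134 and 0.0143). With 3 arrays a group, their number limits the precision.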
